A study of Mus musculus with 6 samples.

Results

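The genes described here encode the fibroblast and interstitial matrix programme: fibrillar collagens and collagen VI, the glycoproteins, proteoglycans and enzymes that surround them, and the transcription factors, receptors and cytoskeletal proteins of mesenchymal cells. They were taken from a list of 44 gene symbols. A gene counted as measured when a probe set of the array carried that symbol alone, and this held for 42 of the 44, out of 19938 genes measured in all. Each of the 42 had 1 such probe set. Fbn1 and Efemp2 were not analysed here, and the listed symbols Ctgf and Cyr61 were found as Ccn2 and Ccn1 through RefSeq synonyms.

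The study compared 3 mouse embryonic stem cell lines that its labels call chromosome transfer cells, namely ♂M-1, ♂M-3 and ZM-1, by hybridising total RNA to a whole-transcript gene array. Each line was represented by 2 repeats, which gave 6 arrays. All cells had been grown on gelatin, in medium with LIF and 2 kinase inhibitors, PD0325901 against MEK and CHIR99021 against GSK3β. What ♂M and ZM stand for is not explained, and strain, passage and sex of the lines were not used here. With 1 ZM line, a difference between ♂M and ZM-1 cannot be told apart from a difference between individual lines.

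Fibroblasts build the interstitial matrix. They secrete collagens I, III and V as fibrils, collagen VI as beaded filaments, and fibronectin and fibulins that link fibrils to elastic fibres. Lysyl oxidases crosslink these polymers, metalloproteinases and their TIMP inhibitors set their turnover, and transcription factors of the Twist, Prrx and Snail families mark the mesenchymal cells that make them. Embryonic stem cells are an epithelial-like pluripotent type, and their own matrix is known for laminin and collagen IV rather than for fibrillar collagens.

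The arrays were alike in scale, with median intensities over all probe sets between 67.2 and 71.3. Intensity is a linear, unitless brightness of a probe set, so differences were taken between arrays for the same gene. Between genes it served to rank probe sets as bright or dim, not to compare amounts of RNA. Sums over a marker list, given below, were likewise compared only between arrays. Pluripotency genes were bright in all 6 arrays: Pou5f1 had intensities of 3683 and 3738 for ♂M-1, 3561 and 3667 for ♂M-3, and 3872 and 3878 for ZM-1, and Nanog had intensities of 3771 and 3467 for ♂M-1, 4082 and 4089.7 for ♂M-3, and 3394 and 3328 for ZM-1. Of the 42 matrix genes, 38 had a mean intensity above the median gene (94.6). Lum and Fap lay below each array's lower quartile over all probe sets (23.8 to 25.1) in every line, so their levels are given without a fold. A difference between 2 lines is given as the log2 difference ± its standard error from a limma fit of all genes on log2(intensity + 1), the first-named line minus the second, and it was called when the p-value adjusted by the Benjamini-Hochberg method over 19938 genes was under 0.05.

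The matrix genes were mainly low in ♂M-3. Against ZM-1, 24 of the 42 were lower in ♂M-3, 7 were higher and 11 did not pass the test, while 7.2% of all genes were lower and 8.66% higher. Among genes above the median intensity, tested on their own, 11% were lower and 23% higher in ♂M-3, and 25 and 6 of the 38 matrix genes among them were called. The median log2 difference of the 42 was −0.39, against 0.0021 over all genes. With each array centred on its median the genes called over the whole array shifted to 5.42% lower and 13.2% higher, and 19 of the matrix genes were called lower. The RNA came from whole cultures, in which fewer cells of a type and less RNA per cell cannot be told apart.

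Between the ♂M lines the matrix genes were mainly high in ♂M-1. Of the 42, 29 were higher in ♂M-1 than in ♂M-3, 1 (Fbln1) was lower and 12 did not pass, against 3.22% higher and 3.32% lower over all genes, 8.05% and 10% among genes above the median, and 3.08% and 3.47% over all genes after median centring. Their median log2 difference was 0.61, against −0.017 over all genes. Leaving out ♂M-1 repeat 2, ♂M-3 repeat 1 or ♂M-3 repeat 2 left 18 called higher and 0 lower. ♂M-1 and ZM-1 differed for fewer matrix genes: ♂M-1 was the higher line for 10, the lower for 5, and 27 did not pass, with 1.89% higher and 2.53% lower over all genes, 8.05% and 5.02% among genes above the median, and 3.15% and 1.93% over all genes after median centring. Their median log2 difference was 0.13, against −0.0082 over all genes. Leaving out ♂M-1 repeat 2 left 5 higher and 1 lower, ♂M-1 repeat 1 left 2 lower, ZM-1 repeat 1 left 7 higher and 1 lower, and ZM-1 repeat 2 left 7 higher. Any 2 of the 3 comparisons share the arrays of a line, so they are not independent of each other.

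**Figure D1:**
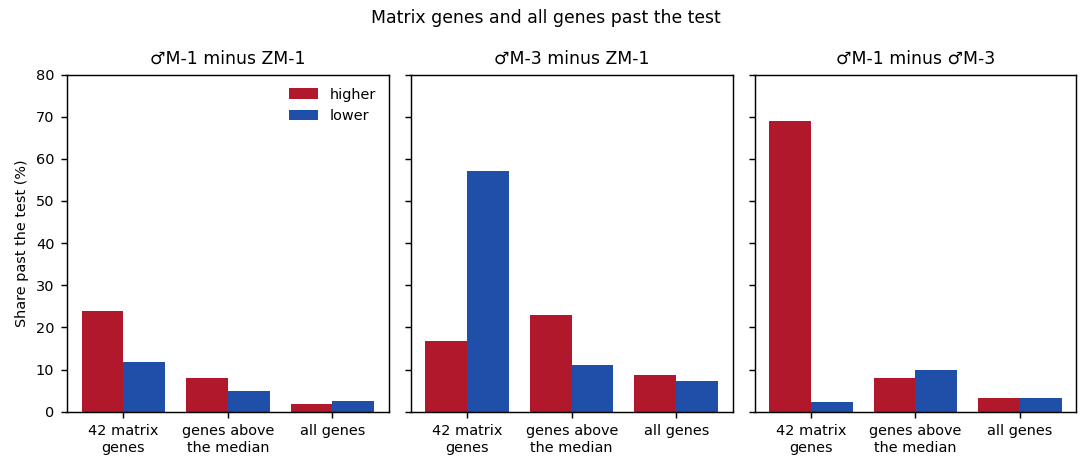
Share of genes called by limma in each comparison (vertical axis, percent), higher and lower shown apart, for the 42 matrix genes, for genes above the median intensity, tested on their own, and for all genes. The bar of the matrix genes is above both others for the lower calls of ♂M-3 against ZM-1, for the higher calls of ♂M-1 against ♂M-3 and for the higher and the lower calls of ♂M-1 against ZM-1. It is between them for the higher calls of ♂M-3 against ZM-1 and below both for the lower calls of ♂M-1 against ♂M-3.

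The order of the single arrays needs no fit, but it comes from the same intensities and is not independent of the calls. Both ♂M-3 arrays lay below the other 4 for 27 of the 42 genes, and this held for 13.5% of all genes and for 15% of those above the median. Both ♂M-1 arrays were the highest for 18 of the 42 (7.12% of all genes, 9.75% of those above the median) and the lowest for 0 (9.53% and 9.31%). Both ZM-1 arrays were the highest for 8 genes (15.3% of all genes, 12.9% of those above the median), namely Col3a1, Col6a1, Col6a2, Col6a3, Dcn, Lum, Mmp2 and Twist2. They were the lowest for another 8 (15.7% and 25.4%), namely Fn1, Fbln1, Efemp1, Ccdc80, Sulf1, Grem1, Ngfr and S100a4. Both ♂M-3 arrays were the highest only for Fbln1 and Pdgfrb of the 42, where 18.3% of all genes and 28.4% of those above the median had that order.

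**Figure D2:**
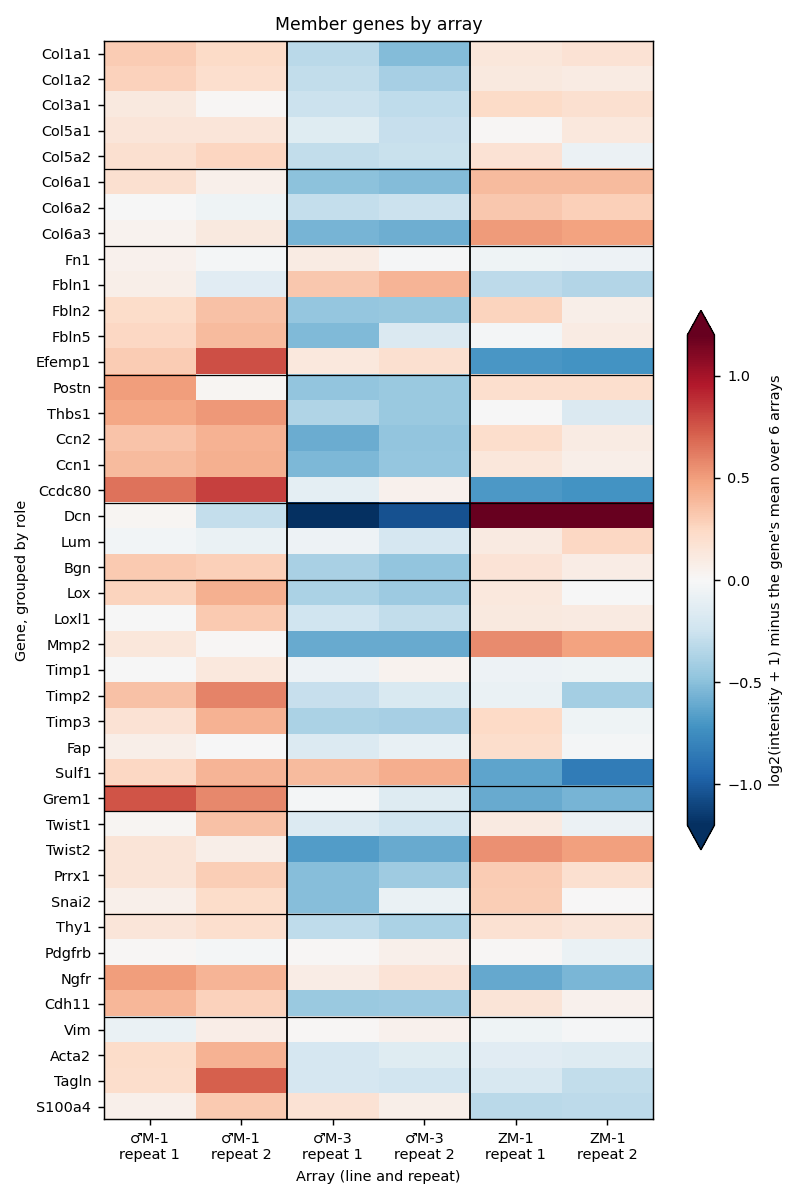
Each of the 42 matrix genes (rows, grouped by role) in the 6 arrays (columns, 2 per line), coloured by its log2(intensity + 1) minus the gene's mean over the arrays, with values beyond ±1.2 drawn in the end colours. The ♂M-3 columns are the lowest for most rows, and 27 of the 42 genes have both ♂M-3 arrays below the other 4.

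Promoter sequence was read for the matrix genes from RefSeq on GRCm38.p6 as the 250 bases before an annotated start, and 24 of the 42 had an entry. Motifs of factors known to act on fibroblast genes were searched on both strands: GGAATG for TEAD, the DNA-binding partner of YAP, TGANTCA for AP-1, CAGGTG for Snail-type repressors, and the CArG box of SRF. The CArG box was searched only in its strict form, CC and GG with 6 letters of A or T between them. No 2 of these motifs contain each other. TEAD letters were present in 6 of the 24 promoters (Acta2, Ccn1, Col3a1, Col6a2, Prrx1 and Timp1), against 12.6% of all 32851 promoters of that length. AP-1 letters were present in 2 of 24 (Col6a1 and Efemp1), against 6.75% of all, and the Snail motif in 2 of 24 (Timp2 and Timp3), against 17.2%. The strict CArG box was found in 0 of 24, against 1.47%. Looser forms with a G or C inside, such as ccctatatgg in the Acta2 window, were not counted. These are matches of letters and say nothing of binding. A promoter is printed with 6 of the genes whose levels differed, the motif in capitals, and each of the 6 held 1 match. These were picked for having both a motif and a called difference, so they cannot show whether motifs go with differences. Timp1, which also has TEAD letters, passed the test in no comparison.

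Fibrillar collagens were lower in ♂M-3 than in both other lines. All 5 were called lower against ZM-1, all 5 were called lower than in ♂M-1, and 0 of 5 were called between ♂M-1 and ZM-1. Col1a1, the α1 chain of collagen I, had intensities of 908 and 865 for ♂M-1, 587 and 512 for ♂M-3, and 810.4 and 827 for ZM-1. The ♂M-3 arrays were the lowest and the other 4 lay close together, with log2 differences of −0.58 ± 0.09 (adjusted p = 0.00287) for ♂M-3 against ZM-1 and 0.69 ± 0.09 (adjusted p = 0.00233) for ♂M-1 against ♂M-3. Col1a2, the partner chain, had intensities of 562 and 535 for ♂M-1, 378 and 350.4 for ♂M-3, and 503 and 495 for ZM-1, and its log2 differences were −0.45 ± 0.08 (adjusted p = 0.00545) and 0.59 ± 0.08 (adjusted p = 0.00307) in the same comparisons. For both chains of collagen I the ♂M-3 arrays did not overlap with those of the other lines.

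Col3a1, which co-assembles with collagen I in pliable tissue, had mean intensities of 174 ± 9.21 for ♂M-1, 137 ± 3.37 for ♂M-3 and 192 ± 4.16 for ZM-1 (SD, n = 2 each). Col5a2, a chain of the collagen V that nucleates fibrils, had a mean intensity of 169.8 ± 4.95 for ♂M-1, 119 ± 1.5 for ♂M-3 and 151 ± 18.5 for ZM-1, and Col5a1, its partner chain, 195 ± 0.0137 for ♂M-1, 152 ± 9.91 for ♂M-3 and 185 ± 9.92 for ZM-1. In ♂M-3 against ZM-1 the log2 differences were −0.49 ± 0.08 (adjusted p = 0.00365) for Col3a1, −0.33 ± 0.09 (adjusted p = 0.0428) for Col5a2 and −0.28 ± 0.08 (adjusted p = 0.0485) for Col5a1. In ♂M-1 against ♂M-3 they were 0.35 ± 0.08 (adjusted p = 0.0313), 0.50 ± 0.09 (adjusted p = 0.0147) and 0.36 ± 0.08 (adjusted p = 0.0346) for the same genes. Calls for collagen V and for Col3a1 between the ♂M lines were lost when any 1 of the ♂M arrays was left out. The collagen V calls against ZM-1 were lost without any 1 array of ♂M-3 or ZM-1, except that of Col5a2 without ZM-1 repeat 2. They were also lost after quantile normalization or median centring or in a fit of only the 2 lines compared (adjusted p 0.0529 to 0.0865). Leaving out a ♂M-1 array gives that same fit of 2 lines for this comparison. The Col1a2 call against ZM-1 had an adjusted p of 0.0546 without ♂M-3 repeat 2.

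The Col3a1 promoter lies at chr1:45311288-45311537 on the plus strand of GRCm38.p6, with the motif starting 168 bases before the start, which is the 5′ end of the annotated gene. It is shown because the TEAD letters sit before a collagen gene that was low in ♂M-3.
Col3a1: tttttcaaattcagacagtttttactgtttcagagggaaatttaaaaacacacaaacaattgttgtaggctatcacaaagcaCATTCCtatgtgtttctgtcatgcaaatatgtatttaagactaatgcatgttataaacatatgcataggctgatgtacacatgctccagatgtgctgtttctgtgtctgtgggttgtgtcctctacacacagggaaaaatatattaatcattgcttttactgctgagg

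**Figure D3:**
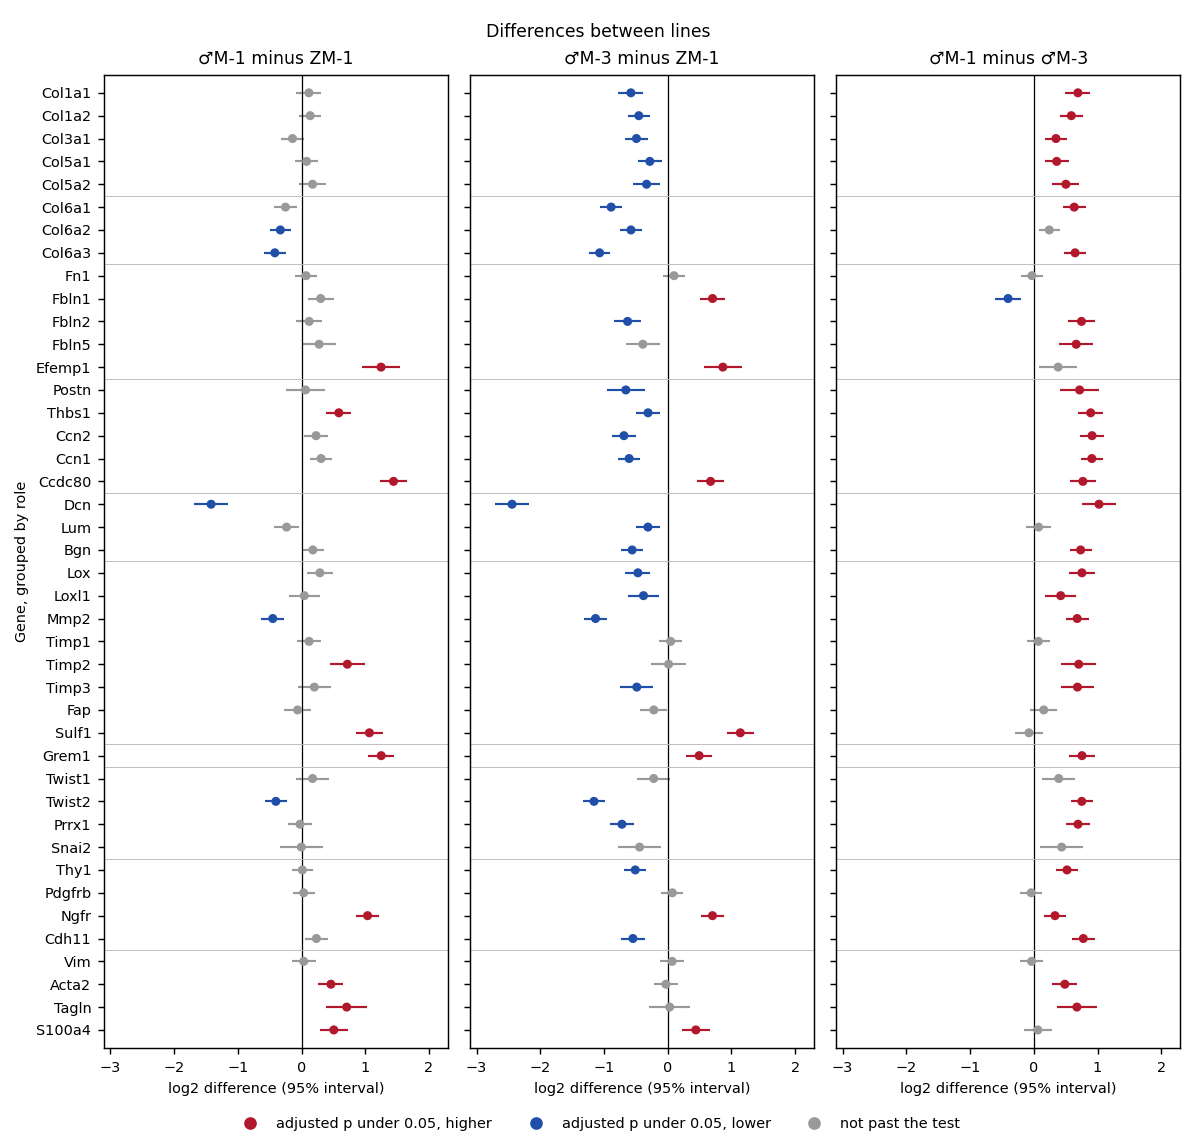
Log2 difference of each matrix gene with its 95% interval (horizontal axis) in the 3 comparisons (panels), red for genes called higher in the first-named line, blue for lower and grey for those not past the test. In ♂M-3 against ZM-1 the lower calls run down to −2.44 for Dcn, and between ♂M-1 and ♂M-3 all but 1 of the 30 called genes lie to the right of 0.

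The chains of collagen VI, which forms the pericellular microfilament network, had their lowest line mean in ♂M-3 and their highest in ZM-1. Only Col6a3 was called in all 3 comparisons. All 3 were called lower in ♂M-3 than in ZM-1, 2 of 3 lower in ♂M-1 against ZM-1, and 2 of 3 higher in ♂M-1 than in ♂M-3. Col6a3, the largest chain, had intensities of 218 and 229 for ♂M-1, 144 and 141 for ♂M-3, and 302 and 297 for ZM-1. No lines overlapped, and the log2 differences were −0.42 ± 0.07 (adjusted p = 0.0161) for ♂M-1 against ZM-1, −1.07 ± 0.07 (adjusted p = 4.9e-05) for ♂M-3 against ZM-1 and 0.65 ± 0.07 (adjusted p = 0.00143) for ♂M-1 against ♂M-3. Col6a1 had intensities of 199 and 181 for ♂M-1, 123 and 121 for ♂M-3, and 227 and 226 for ZM-1, in the same order. Its log2 difference was −0.89 ± 0.08 (adjusted p = 0.000168) in ♂M-3 and −0.25 ± 0.08 (adjusted p = 0.112) in ♂M-1, each against ZM-1, of which that of ♂M-1 did not pass, and 0.63 ± 0.08 (adjusted p = 0.00213) between the ♂M lines.

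Col6a2 had a mean intensity of 153 ± 3.62 for ♂M-1, 129 ± 2.01 for ♂M-3 and 193 ± 3.45 for ZM-1 (SD, n = 2 each). Its log2 difference was −0.58 ± 0.07 (adjusted p = 0.00122) for ♂M-3 against ZM-1 and −0.33 ± 0.07 (adjusted p = 0.0383) for ♂M-1 against ZM-1. For ♂M-1 against ♂M-3 it was 0.24 (adjusted p = 0.0946) and did not pass. The call of Col6a2 in ♂M-1 against ZM-1 ended when any 1 array of these lines was left out. It also ended after median centring and in a fit of only these 2 lines. That of Col6a3 ended without either ♂M-1 repeat or ZM-1 repeat 1.

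The Col6a1 promoter lies at chr10:76726045-76726294 on the minus strand of GRCm38.p6, with the motif starting 90 bases before the start, which is the 5′ end of the annotated gene. It is shown for its AP-1 letters.
Col6a1: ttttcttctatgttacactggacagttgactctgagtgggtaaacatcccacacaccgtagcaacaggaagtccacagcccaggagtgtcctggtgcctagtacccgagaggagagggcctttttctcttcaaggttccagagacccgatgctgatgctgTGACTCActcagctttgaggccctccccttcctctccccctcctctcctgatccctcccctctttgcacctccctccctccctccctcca

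Fibronectin and the elastic fibre glycoproteins did not move as a block. Of the 5 measured, 2 were called higher and 1 lower in ♂M-3 than in ZM-1, 1 higher in ♂M-1 against ZM-1, and 2 higher and 1 lower in ♂M-1 than in ♂M-3. Fn1, fibronectin itself, had intensities of 5505 and 5252 for ♂M-1, 5718 and 5271 for ♂M-3, and 5153 and 5097 for ZM-1, and its adjusted p was between 0.446 and 0.891 in the 3 comparisons. Efemp1 (fibulin-3), a secreted glycoprotein of basement membranes and elastic tissue, had intensities of 116 and 160.5 for ♂M-1, 102 and 107 for ♂M-3, and 57.2 and 56.5 for ZM-1. The ZM-1 arrays were the lowest, and the log2 difference against them was 1.25 ± 0.13 (adjusted p = 0.0013) in ♂M-1, 2.37-fold higher, and 0.86 ± 0.13 (adjusted p = 0.00312) in ♂M-3, 1.82-fold higher.

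The Efemp1 promoter lies at chr11:28852955-28853204 on the plus strand of GRCm38.p6, with the motif starting 154 bases before the start. That start is inside the annotated gene, so the window takes in the gene's first bases. It is shown for its match to the AP-1 motif, in which the free middle base differs from that in Col6a1.
Efemp1: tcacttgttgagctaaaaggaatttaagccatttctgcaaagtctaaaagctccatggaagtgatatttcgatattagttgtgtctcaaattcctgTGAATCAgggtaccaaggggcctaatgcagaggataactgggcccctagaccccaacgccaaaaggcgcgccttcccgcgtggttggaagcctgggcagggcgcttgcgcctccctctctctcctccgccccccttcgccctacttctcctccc

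The other fibulins, which bridge elastin and basement membrane proteins, differed from one another. Fbln1 had intensities of 774 and 670.3 for ♂M-1, 925 and 982 for ♂M-3, and 593 and 577 for ZM-1, and it was the 1 matrix gene called lower in ♂M-1 than in ♂M-3 (log2 difference −0.40 ± 0.09, adjusted p = 0.0305). Against ZM-1 the log2 difference of Fbln1 was 0.70 ± 0.09 (adjusted p = 0.00122) in ♂M-3. Fbln2 had the opposite order of the ♂M lines, with 669 and 735 for ♂M-1, 416 and 419 for ♂M-3, and 692 and 603 for ZM-1. Its log2 difference was −0.63 ± 0.09 (adjusted p = 0.00235) for ♂M-3 against ZM-1 and 0.75 ± 0.09 (adjusted p = 0.00197) for ♂M-1 against ♂M-3. Fbln5, needed for elastic fibre assembly, had intensities of 165 and 180.4 for ♂M-1, 95.9 and 122 for ♂M-3, and 136 and 148 for ZM-1, with a call only between the ♂M lines (log2 difference 0.66 ± 0.12, adjusted p = 0.0114). Leaving out ♂M-1 repeat 2 or either ♂M-3 repeat ended the Fbln1 call between the ♂M lines (adjusted p 0.104 to 0.215), and leaving out ♂M-1 repeat 2 or ♂M-3 repeat 1 ended that of Fbln5 (0.069 to 0.122).

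Matricellular proteins, secreted signals that sit in the matrix rather than build it, were higher in ♂M-1 than in ♂M-3 for all 5 measured. Against ZM-1, 4 of 5 were lower in ♂M-3 and 1 higher, and 2 of 5 were higher in ♂M-1. Ccn2 (connective tissue growth factor), a classical target of YAP and of TGF-beta, had intensities of 2387 and 2499.8 for ♂M-1, 1242 and 1353 for ♂M-3, and 2166 and 2011 for ZM-1. The ♂M-3 arrays were clearly the lowest, with a log2 difference of −0.69 ± 0.08 (adjusted p = 0.000931) against ZM-1 and 0.91 ± 0.08 (adjusted p = 0.000458) for ♂M-1 against ♂M-3. Ccn1 (Cyr61), its relative and likewise a YAP target, had intensities of 1088 and 1124 for ♂M-1, 573 and 603 for ♂M-3, and 915 and 875 for ZM-1. Its log2 difference was −0.61 ± 0.08 (adjusted p = 0.00116) for ♂M-3 against ZM-1 and 0.91 ± 0.08 (adjusted p = 0.000321) for ♂M-1 against ♂M-3, so the 2 relatives ran in parallel.

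The Ccn1 promoter lies at chr3:145649986-145650235 on the minus strand of GRCm38.p6, with the motif starting 103 bases before the start, which is the 5′ end of the annotated gene. It is shown as that of a YAP target with TEAD letters.
Ccn1: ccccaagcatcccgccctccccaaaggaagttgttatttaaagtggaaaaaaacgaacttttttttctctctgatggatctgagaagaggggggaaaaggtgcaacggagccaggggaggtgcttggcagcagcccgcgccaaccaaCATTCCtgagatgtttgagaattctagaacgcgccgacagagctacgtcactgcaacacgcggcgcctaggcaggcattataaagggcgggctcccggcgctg

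Thbs1 (thrombospondin 1), an adhesive glycoprotein that activates TGF-beta, had intensities of 3824 and 3962 for ♂M-1, 2161 and 2033 for ♂M-3, and 2756 and 2446 for ZM-1. All lines were apart, with log2 differences of 0.58 ± 0.09 (adjusted p = 0.0065) for ♂M-1 against ZM-1, −0.31 ± 0.09 (adjusted p = 0.0401) for ♂M-3 against ZM-1 and 0.89 ± 0.09 (adjusted p = 0.000634) between the ♂M lines. Postn (periostin), a ligand of integrins in collagen-rich tissue, had intensities of 730.0 and 523 for ♂M-1, 371 and 379 for ♂M-3, and 593 and 592 for ZM-1. The ♂M-1 repeats lay on both sides of ZM-1, and the log2 difference was −0.66 ± 0.13 (adjusted p = 0.012) for ♂M-3 against ZM-1 and 0.72 ± 0.13 (adjusted p = 0.0149) for ♂M-1 against ♂M-3. Ccdc80, a secreted matrix-associated protein, had intensities of 497 and 561 for ♂M-1, 292 and 328 for ♂M-3, and 195 and 192 for ZM-1. Here ZM-1 was the lowest line: ♂M-1 was 2.72-fold higher (log2 difference 1.44 ± 0.09, adjusted p = 6.48e-05) and ♂M-3 1.59-fold higher (log2 difference 0.67 ± 0.09, adjusted p = 0.00175), and ♂M-1 exceeded ♂M-3 by a log2 difference of 0.77 ± 0.09 (adjusted p = 0.00175). The Thbs1 call of ♂M-3 against ZM-1 was lost without either ♂M-3 repeat or ZM-1 repeat 1. It was also lost after median centring and in a fit of only these 2 lines. The Thbs1 call of ♂M-1 against ZM-1 was lost without ♂M-1 repeat 2, and the Postn calls without either ♂M-3 repeat.

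Dcn (decorin), a small leucine-rich proteoglycan that coats collagen fibrils and a standard fibroblast marker, had the widest spread of line means of the 42 genes on the log2 scale. It had intensities of 237 and 191 for ♂M-1, 96.5 and 112 for ♂M-3, and 596 and 546 for ZM-1. The ZM-1 arrays were far above all others and the ♂M-3 arrays were the lowest. The log2 difference was −2.44 ± 0.12 (adjusted p = 6.63e-06) in ♂M-3 against ZM-1, 5.44-fold lower, and −1.42 ± 0.12 (adjusted p = 0.000332) in ♂M-1 against ZM-1, 2.68-fold lower. Between the ♂M lines it was 1.02 ± 0.12 (adjusted p = 0.00151). All 3 calls of Dcn held with each array left out in turn and under the other settings run.

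Lum (lumican), a relative of decorin, had intensities of 14.3 and 13.8 for ♂M-1, 14.0 and 12.6 for ♂M-3, and 15.9 and 17.6 for ZM-1, which is below the lower quartile of every array. Its ♂M-3 against ZM-1 call (adjusted p = 0.0398) was lost with a pseudocount of 16, after quantile normalization or median centring, and in a fit of only the 2 lines compared (adjusted p 0.0547 to 0.103). It was also lost without either ♂M-3 repeat or ZM-1 repeat 2. The genes Kera and Epyc, which share the chromosome 10 cluster with Dcn and Lum, also lay below the lower quartile in all lines, so Dcn was the 1 gene of that cluster above it. Bgn (biglycan), the closest relative of decorin, had another order of lines, with 1820.5 and 1787 for ♂M-1, 1119 and 1049 for ♂M-3, and 1635 and 1558 for ZM-1. Its log2 difference was −0.56 ± 0.08 (adjusted p = 0.00181) for ♂M-3 against ZM-1 and 0.73 ± 0.08 (adjusted p = 0.000937) for ♂M-1 against ♂M-3, while ♂M-1 against ZM-1 did not pass.

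**Figure D4:**
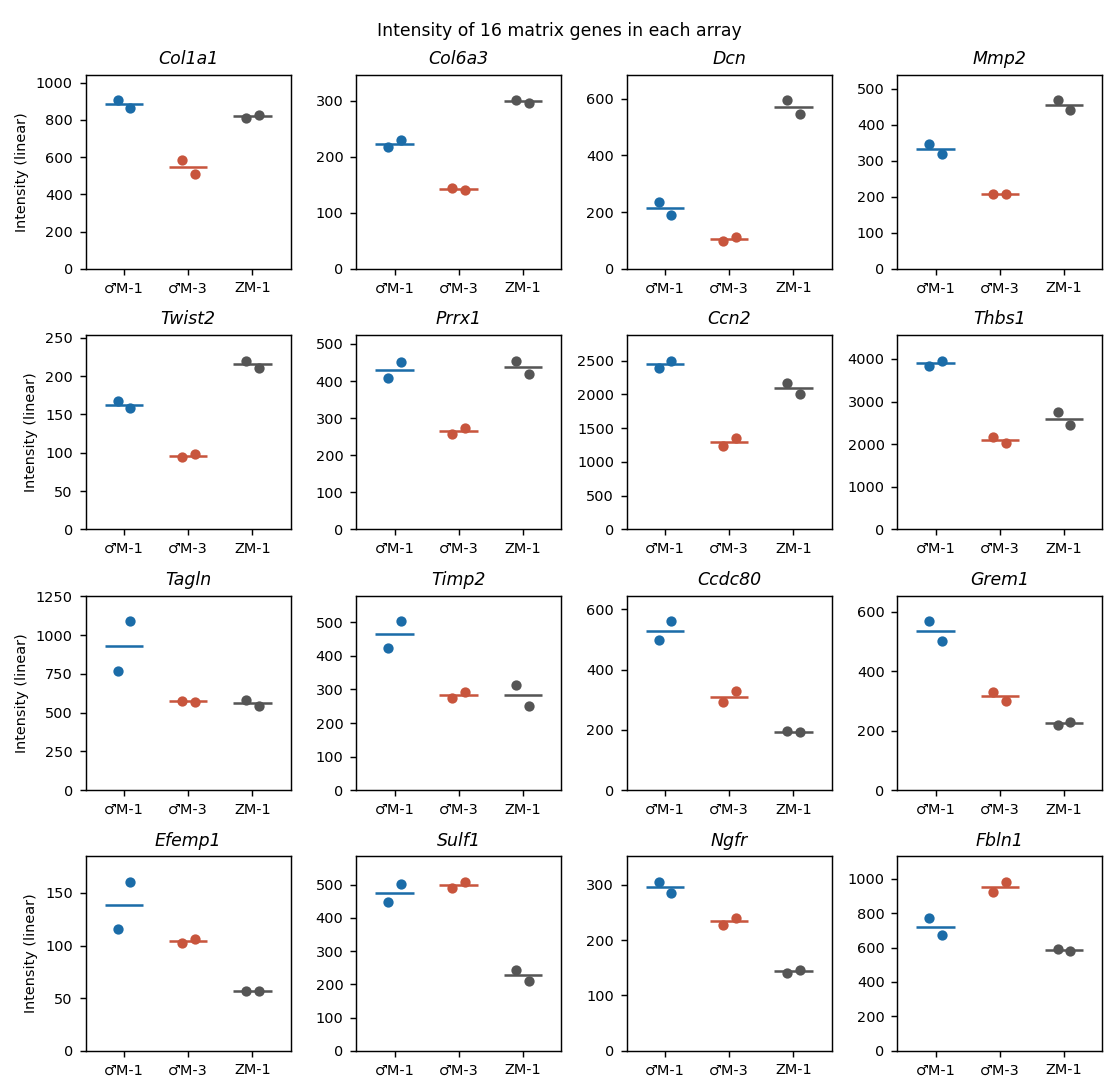
Intensity (vertical axis, linear scale from 0, a scale of its own in each panel) of 16 matrix genes in the 2 arrays of each line, points for arrays and a short line for the mean of the 2. Col1a1, Col6a3, Dcn, Mmp2, Twist2, Prrx1, Ccn2 and Thbs1 have both lowest points in ♂M-3, while Ccdc80, Grem1, Efemp1, Sulf1, Ngfr and Fbln1 have them in ZM-1.

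Crosslinking enzymes were low in ♂M-3. Lox (lysyl oxidase), which starts the crosslinks of collagen and elastin, had intensities of 1410.3 and 1571 for ♂M-1, 901 and 863 for ♂M-3, and 1278 and 1164 for ZM-1. Both ♂M-3 arrays were below the other 4, and the log2 differences were −0.47 ± 0.09 (adjusted p = 0.00808) for ♂M-3 against ZM-1 and 0.76 ± 0.09 (adjusted p = 0.00153) for ♂M-1 against ♂M-3. Loxl1, its relative in elastic fibres, had a mean intensity of 238 ± 38.0 for ♂M-1, 176 ± 4.64 for ♂M-3 and 229.7 ± 1.88 for ZM-1 (SD, n = 2 each), with log2 differences of −0.38 ± 0.11 (adjusted p = 0.0406) and 0.42 ± 0.11 (adjusted p = 0.0486) in the same comparisons. The Loxl1 calls were lost with an array of either line compared left out, except ♂M-1 repeat 1 (adjusted p 0.102 to 0.268), its call against ZM-1 also after median centring (0.0587), and the Lox call against ZM-1 without ♂M-3 repeat 2 (0.0638).

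Mmp2 (gelatinase A), a protease of denatured collagen and collagen IV, had its line means in the order of collagen VI. Its intensities were 347 and 319 for ♂M-1, 207 and 207 for ♂M-3, and 469 and 442 for ZM-1. It was 2.19-fold lower in ♂M-3 than in ZM-1 (log2 difference −1.13 ± 0.08, adjusted p = 5.13e-05). In ♂M-1 against ZM-1 its log2 difference was −0.45 ± 0.08 (adjusted p = 0.0161), and between the ♂M lines it was 0.68 ± 0.08 (adjusted p = 0.00164). Of the TIMPs, which inhibit such proteases, Timp2 and Timp3 each passed the test in 2 comparisons. Timp2 had intensities of 424 and 504 for ♂M-1, 274 and 293 for ♂M-3, and 315 and 251 for ZM-1, high in ♂M-1, with log2 differences of 0.72 ± 0.12 (adjusted p = 0.0139) against ZM-1 and 0.70 ± 0.12 (adjusted p = 0.0108) against ♂M-3. Timp3, which binds the matrix, had intensities of 706 and 838 for ♂M-1, 482 and 474 for ♂M-3, and 742 and 605 for ZM-1, with log2 differences of −0.49 ± 0.12 (adjusted p = 0.0223) for ♂M-3 against ZM-1 and 0.68 ± 0.12 (adjusted p = 0.00953) for ♂M-1 against ♂M-3. Timp1 lay between 786 and 896 in all 6 arrays and did not pass in any comparison (adjusted p 0.476 to 0.76). Calls lost with 1 array left out were those of Mmp2 in ♂M-1 against ZM-1 (♂M-1 repeat 2 or ZM-1 repeat 1, adjusted p 0.0617 to 0.125), of Timp2 (♂M-1 repeat 2 in both comparisons, either ♂M-3 repeat between the ♂M lines, 0.0536 to 0.125) and of Timp3 (♂M-1 repeat 2, either ♂M-3 repeat or ZM-1 repeat 1, 0.0592 to 0.109).

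Sulf1, an extracellular sulphatase that trims heparan sulphate and so tunes growth factor binding, set both ♂M lines apart from ZM-1. It had intensities of 448 and 501 for ♂M-1, 490.1 and 508 for ♂M-3, and 243 and 210.0 for ZM-1. The ♂M-3 and ♂M-1 arrays overlapped and all lay above ZM-1, 2.20-fold higher in ♂M-3 (log2 difference 1.14 ± 0.10, adjusted p = 0.000133) and 2.09-fold higher in ♂M-1 (log2 difference 1.06 ± 0.10, adjusted p = 0.000505). Fap, a serine protease of activated fibroblasts, lay between 11.7 and 15.5 in all arrays, below the lower quartile, and passed no test. Grem1 (gremlin 1), a secreted antagonist of BMPs, had intensities of 568 and 502 for ♂M-1, 331 and 301 for ♂M-3, and 220.0 and 228 for ZM-1. No lines overlapped and ZM-1 was the lowest, with log2 differences of 1.25 ± 0.09 (adjusted p = 0.000136) for ♂M-1 against ZM-1, 0.49 ± 0.09 (adjusted p = 0.00709) for ♂M-3 against ZM-1 and 0.76 ± 0.09 (adjusted p = 0.00173) between the ♂M lines. Without ♂M-3 repeat 1 the adjusted p of Grem1 in ♂M-3 against ZM-1 was 0.0612.

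Of the 4 mesenchymal transcription factors, 2 were lower in ♂M-3 than in ZM-1 and lower in ♂M-3 than in ♂M-1, and the other two passed in no comparison. Twist2, a basic helix-loop-helix factor of dermal and skeletal mesenchyme, had intensities of 167 and 158 for ♂M-1, 94.1 and 98.2 for ♂M-3, and 220.4 and 211 for ZM-1. Its lines were graded in the order of collagen VI and Mmp2, with log2 differences of −1.16 ± 0.08 (adjusted p = 4.27e-05) for ♂M-3 against ZM-1, −0.40 ± 0.08 (adjusted p = 0.022) for ♂M-1 against ZM-1 and 0.75 ± 0.08 (adjusted p = 0.000888) between the ♂M lines. Prrx1, a homeobox factor of limb and craniofacial mesenchyme, had intensities of 409 and 452 for ♂M-1, 258 and 273 for ♂M-3, and 455 and 420.2 for ZM-1. The ♂M-1 and ZM-1 arrays overlapped and ♂M-3 lay below both, with log2 differences of −0.72 ± 0.09 (adjusted p = 0.000888) against ZM-1 and 0.69 ± 0.09 (adjusted p = 0.00215) for ♂M-1 against ♂M-3. Twist1 lay between 73.4 and 111 and Snai2, a Snail-family repressor, between 69.2 and 122, with adjusted p of at least 0.0757. The Twist2 call of ♂M-1 against ZM-1 was lost without either ♂M-1 repeat or ZM-1 repeat 1 (adjusted p 0.0739 to 0.149).

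The Prrx1 promoter lies at chr1:163313651-163313900 on the minus strand of GRCm38.p6, with the motif starting 180 bases before the start. That start belongs to a transcript that begins inside the annotated gene, so the window lies within the gene. It is shown as that of the mesenchymal regulator with TEAD letters.
Prrx1: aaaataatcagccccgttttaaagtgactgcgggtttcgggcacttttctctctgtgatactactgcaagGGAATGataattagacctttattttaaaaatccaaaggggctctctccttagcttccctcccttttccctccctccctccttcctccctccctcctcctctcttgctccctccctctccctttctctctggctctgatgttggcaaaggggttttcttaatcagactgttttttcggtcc

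Surface molecules also split. Cdh11, the cadherin of mesenchymal cells, had intensities of 365 and 336 for ♂M-1, 203 and 205 for ♂M-3, and 309 and 287 for ZM-1, with log2 differences of −0.55 ± 0.08 (adjusted p = 0.00264) for ♂M-3 against ZM-1 and 0.78 ± 0.08 (adjusted p = 0.000913) for ♂M-1 against ♂M-3. Thy1, a surface glycoprotein used to sort fibroblasts, had a mean intensity of 353 ± 9.59 for ♂M-1, 245 ± 8.42 for ♂M-3 and 349.7 ± 7.4 for ZM-1 (SD, n = 2 each), with log2 differences of −0.51 ± 0.08 (adjusted p = 0.00259) and 0.52 ± 0.08 (adjusted p = 0.00459) in the same comparisons. Ngfr, the low-affinity neurotrophin receptor of neural crest and some stromal cells, was lowest in ZM-1 and had intensities of 305 and 286 for ♂M-1, 228 and 241 for ♂M-3, and 141 and 147 for ZM-1. Relative to ZM-1 the ♂M-1 level was 2.05-fold higher (log2 difference 1.03 ± 0.08, adjusted p = 0.000187) and the ♂M-3 level 1.63-fold higher (log2 difference 0.70 ± 0.08, adjusted p = 0.00061), and the ♂M lines differed by a log2 difference of 0.33 ± 0.08 (adjusted p = 0.0386). Pdgfrb, a PDGF receptor of pericytes and fibroblasts, lay between 155 and 171 in all 6 arrays and passed in no comparison. Between the ♂M lines the Ngfr call ended when any 1 of their arrays was left out (adjusted p 0.124 to 0.221) and that of Thy1 without ♂M-1 repeat 2 or ♂M-3 repeat 2 (0.0512 to 0.0544).

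The contractile genes, which myofibroblasts share with smooth muscle, were high in ♂M-1. Tagln (transgelin), an actin-binding protein, had intensities of 768 and 1090.0 for ♂M-1, 577 and 568 for ♂M-3, and 581 and 539.7 for ZM-1. The ♂M-1 arrays were the highest and differed most from each other, with log2 differences of 0.71 ± 0.14 (adjusted p = 0.026) against ZM-1 and 0.68 ± 0.14 (adjusted p = 0.024) against ♂M-3. Acta2, smooth muscle actin, had a mean intensity of 3869 ± 373 for ♂M-1, 2754 ± 69.7 for ♂M-3 and 2807 ± 17.2 for ZM-1 (SD, n = 2 each), with log2 differences of 0.46 ± 0.09 (adjusted p = 0.0207) and 0.49 ± 0.09 (adjusted p = 0.0116) in the same comparisons. Vim (vimentin), the intermediate filament of mesenchymal cells and of many cultured ones, lay between 4905 and 5487 and passed in no comparison. S100a4, a calcium-binding protein of motile cells, had a mean intensity of 62.2 ± 7.71 for ♂M-1, 59.3 ± 3.05 for ♂M-3 and 43.4 ± 0.227 for ZM-1, higher in ♂M-1 (log2 difference 0.51 ± 0.10, adjusted p = 0.0215) and in ♂M-3 (log2 difference 0.44 ± 0.10, adjusted p = 0.0153) than in ZM-1. The Tagln, Acta2 and S100a4 calls against ZM-1 in ♂M-1 were lost without ♂M-1 repeat 2 or either ZM-1 repeat, those of Tagln and Acta2 against ♂M-3 without ♂M-1 repeat 2 or either ♂M-3 repeat, and that of S100a4 in ♂M-3 without either ♂M-3 repeat (adjusted p 0.0528 to 0.143 over these).

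The Acta2 promoter lies at chr19:34255374-34255623 on the minus strand of GRCm38.p6, with the motif starting 146 bases before the start. That start is inside the annotated gene, so most of the window lies within it. It is shown as that of a contractile gene with TEAD letters.
Acta2: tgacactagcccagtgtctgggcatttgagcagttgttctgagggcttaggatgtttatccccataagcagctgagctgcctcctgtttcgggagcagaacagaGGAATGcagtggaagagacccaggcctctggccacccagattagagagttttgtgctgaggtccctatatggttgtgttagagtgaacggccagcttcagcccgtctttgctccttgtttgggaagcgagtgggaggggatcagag

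The matrix genes are scattered over 14 chromosomes, and the 24 that were lower in ♂M-3 than in ZM-1 lie on 10. On GRCm38.p6 Col3a1 and Col5a2 are separated by 24.6 kb on chromosome 1 and Col6a2 and Col6a1 by 85.2 kb on chromosome 10, and in both pairs each gene was lower in ♂M-3 than in ZM-1. Dcn and Lum are separated by 47.3 kb on chromosome 10. Col6a3 and Twist2 lie 957.5 kb apart on chromosome 1 and had the same order of lines. Col1a1 and Ngfr, 615.8 kb apart on chromosome 11, did not: ♂M-3 was below ZM-1 for Col1a1 and above it for Ngfr.

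Further genes of the matrix pathway outside the 42 were counted in the same fit. Over all genes, 7.2% were lower and 8.66% higher in ♂M-3 than in ZM-1 (11% and 23% among genes above the median). In ♂M-1 against ZM-1 the shares were 1.89% higher and 2.53% lower (8.05% and 5.02%). In ♂M-1 against ♂M-3 they were 3.22% higher and 3.32% lower (8.05% and 10%). Counts near these shares, here and in the lists that follow, are no result about a list. Of 29 other matrix glycoproteins, 7 were lower and 1 higher in ♂M-3 than in ZM-1, 2 were higher and 1 lower in ♂M-1 against ZM-1, and 8 were higher and 1 lower in ♂M-1 than in ♂M-3. Tnc (tenascin C), an anti-adhesive matrix protein, had a mean intensity of 1187 ± 71.9 for ♂M-1, 511 ± 15.5 for ♂M-3 and 1102 ± 52.8 for ZM-1 (SD, n = 2 each), with log2 differences of −1.11 ± 0.08 (adjusted p = 7.23e-05) for ♂M-3 against ZM-1 and 1.21 ± 0.08 (adjusted p = 0.00011) for ♂M-1 against ♂M-3. Thbs2, a relative of Thbs1, had a mean intensity of 448 ± 77.5 for ♂M-1, 223 ± 12.3 for ♂M-3 and 471 ± 6.16 for ZM-1, with log2 differences of −1.08 ± 0.11 (adjusted p = 0.000427) and 0.99 ± 0.11 (adjusted p = 0.00143). Among 15 other interstitial collagens 3 were lower in ♂M-3 than in ZM-1 and 0 higher, 2 were higher in ♂M-1 than in ♂M-3, and 1 was higher in ♂M-1 against ZM-1. Col12a1, a collagen that decorates fibril surfaces, had a mean intensity of 713 ± 32.4 for ♂M-1, 355 ± 0.567 for ♂M-3 and 701 ± 12.1 for ZM-1, so ♂M-3 was 1.97-fold lower than ZM-1 (log2 difference −0.98 ± 0.08, adjusted p = 8.84e-05). All 3 named genes had their lowest mean in ♂M-3, but they were chosen for large called differences, so this is no separate result. Ccn4, a glycoprotein gene also among the largest called differences, had its lowest mean in ZM-1 (113 ± 10.7, against 122 ± 6.12 for ♂M-3). With 1 array left out, 3 to 6 of the glycoproteins were lower in ♂M-3 than in ZM-1 (3 without ♂M-3 repeat 2, 4 without ZM-1 repeat 1), and 2 to 8 higher in ♂M-1 than in ♂M-3 (2 without ♂M-1 repeat 2, 4 and 3 without ♂M-3 repeat 1 and 2). The collagens lower in ♂M-3 were 1 without either ♂M-3 repeat or ZM-1 repeat 2.

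Of 20 collagen processing enzymes, 3 were higher and 3 lower in ♂M-3 than in ZM-1. Over all genes 8.66% were higher and 7.2% lower there, and 23% and 11% among genes above the median. In ♂M-1, 3 were higher and 1 lower than in ZM-1, and 2 higher and 1 lower than in ♂M-3. These small counts are no result about the list. Plod1, a lysyl hydroxylase, had a mean intensity of 640.4 ± 12.9 for ♂M-1, 566 ± 2.4 for ♂M-3 and 920.0 ± 16.2 for ZM-1 (SD, n = 2 each), with log2 differences of −0.70 ± 0.07 (adjusted p = 0.000403) in ♂M-3 and −0.52 ± 0.07 (adjusted p = 0.005) in ♂M-1, each against ZM-1. Pcolce2, an enhancer of procollagen cleavage, had a mean intensity of 549 ± 35.6 for ♂M-1, 576 ± 16.5 for ♂M-3 and 331 ± 13.4 for ZM-1, with log2 differences of 0.80 ± 0.08 (adjusted p = 0.000367) and 0.73 ± 0.08 (adjusted p = 0.00167). Of 9 other leucine-rich proteoglycans 2 were higher and 2 lower in ♂M-3, and 2 higher and 1 lower in ♂M-1, each against ZM-1, and 0 were called between the ♂M lines. Each of the counts against ZM-1 fell when some single array was left out. Omd, Kera and Epyc of this list lay below the lower quartile in all lines. Of 18 other matrix proteases 5 were lower and 1 higher in ♂M-3 than in ZM-1, 5 were higher in ♂M-1 than in ♂M-3, and 1 was higher in ♂M-1 against ZM-1. Mmp14, the membrane protease that activates pro-Mmp2, had a mean intensity of 322 ± 18.6 for ♂M-1, 230.2 ± 2.09 for ♂M-3 and 227 ± 7.16 for ZM-1, with a log2 difference of 0.50 ± 0.08 (adjusted p = 0.00905) for ♂M-1 against ZM-1. Without either ♂M-3 repeat, 0 proteases were lower in ♂M-3 and 0 higher in ♂M-1, and without ♂M-1 repeat 2 the adjusted p in ♂M-1 against ZM-1 was 0.0885 for Mmp14 and 0.0585 for Plod1.

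Signalling lists around the matrix had the following counts, to be read beside the shares over all genes given above. Of 26 TGF-beta and BMP genes, 6 were lower and 2 higher in ♂M-3 than in ZM-1, 2 higher in ♂M-1 against ZM-1, and 7 higher in ♂M-1 than in ♂M-3. Id3, a transcriptional target of BMP, had a mean intensity of 286 ± 29.7 for ♂M-1, 159 ± 1.2 for ♂M-3 and 237 ± 2.76 for ZM-1 (SD, n = 2 each), with log2 differences of −0.58 ± 0.09 (adjusted p = 0.00294) for ♂M-3 against ZM-1 and 0.84 ± 0.09 (adjusted p = 0.000901) for ♂M-1 against ♂M-3. The list called YAP and SRF targets here also held the factors themselves, namely Yap1, Wwtr1, Tead1, Tead2, Tead4 and Srf. Of its 22 genes, 10 were higher and 1 lower in ♂M-1 than in ♂M-3, 5 higher in ♂M-1 against ZM-1, and 2 higher and 2 lower in ♂M-3 than in ZM-1. Tead2, a factor and not a target, was among those higher in ♂M-3. Ankrd1, a YAP target, had a mean intensity of 226 ± 55.4 for ♂M-1, 98.7 ± 3.81 for ♂M-3 and 177 ± 2.81 for ZM-1, with log2 differences of −0.84 ± 0.14 (adjusted p = 0.00475) for ♂M-3 against ZM-1 and 1.17 ± 0.14 (adjusted p = 0.00178) for ♂M-1 against ♂M-3. Myl9, a myosin light chain, had a mean intensity of 1116 ± 261 for ♂M-1, 631 ± 52.8 for ♂M-3 and 569 ± 15.5 for ZM-1, with a log2 difference of 0.95 ± 0.14 (adjusted p = 0.00675) for ♂M-1 against ZM-1, and its ♂M-1 repeats were far apart. Without ♂M-1 repeat 2, the YAP and SRF targets higher in ♂M-1 were 1 against ZM-1 and 2 against ♂M-3, and the count against ♂M-3 was 2 and 3 without ♂M-3 repeat 1 and 2. The TGF-beta and BMP genes higher in ♂M-1 than in ♂M-3 were 1 without ♂M-3 repeat 1, and those lower in ♂M-3 than in ZM-1 were 2.

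Of 25 integrins and matrix receptors, 5 were lower in ♂M-3 than in ZM-1, 1 lower in ♂M-1 against ZM-1, and 7 higher in ♂M-1 than in ♂M-3. Sdc4 (syndecan 4), a fibronectin co-receptor, had a mean intensity of 822 ± 44.8 for ♂M-1, 607 ± 8.64 for ♂M-3 and 963 ± 3.07 for ZM-1 (SD, n = 2 each), with a log2 difference of −0.67 ± 0.08 (adjusted p = 0.000706) in ♂M-3 against ZM-1. Of 10 genes of PDGF and fibroblast growth factor signalling, 2 were lower and 1 higher in ♂M-3 than in ZM-1, 0 were called in ♂M-1 against ZM-1, and 1 was higher and 3 lower in ♂M-1 than in ♂M-3. Fgf7, a growth factor that mesenchyme makes for epithelium, had a mean intensity of 175 ± 20.1 for ♂M-1, 86.5 ± 4.82 for ♂M-3 and 195 ± 17.0 for ZM-1, with a log2 difference of −1.16 ± 0.10 (adjusted p = 0.000168) for ♂M-3 against ZM-1. Of 22 mesenchymal transition genes 4 were lower and 1 higher in ♂M-3 than in ZM-1, 2 were higher in ♂M-1 than in ♂M-3, and 0 were called in ♂M-1 against ZM-1. Epcam, an epithelial adhesion molecule in that list, had a mean intensity of 390.5 ± 16.1 for ♂M-1, 274 ± 4.46 for ♂M-3 and 485 ± 21.4 for ZM-1, with a log2 difference of −0.82 ± 0.08 (adjusted p = 0.000237) for ♂M-3 against ZM-1, so it ran in the direction of the matrix genes. Integrins and receptors higher in ♂M-1 than in ♂M-3 were 2 without ♂M-1 repeat 2 or ♂M-3 repeat 2 and 3 without ♂M-3 repeat 1, and those lower in ♂M-3 than in ZM-1 were 3 without either ♂M-3 repeat or ZM-1 repeat 2.

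Markers of other cells, and fibroblast markers outside the list, were counted beside these results. The shares over all genes given above apply to these counts too. Of 16 fibroblast markers outside the 42, 6 were lower and 2 higher in ♂M-3 than in ZM-1, 2 lower in ♂M-1 against ZM-1, and 2 higher and 2 lower in ♂M-1 than in ♂M-3. Their summed intensity was 3156 and 3138 in ♂M-1, 3122 and 3378 in ♂M-3, and 3479 and 3348 in ZM-1, so the sums of ♂M-3 and ZM-1 overlapped. Such a sum, here and for the lists below, is weighted to the brightest probe sets and does not describe the typical marker. Pcolce alone had a mean intensity of 1576 ± 170 in ♂M-3. Serpinf1, a secreted stromal protein, had a mean intensity of 563 ± 5.23 for ♂M-1, 280.1 ± 12.5 for ♂M-3 and 691 ± 3.51 for ZM-1 (SD, n = 2 each), with a log2 difference of −1.30 ± 0.07 (adjusted p = 2.01e-05) for ♂M-3 against ZM-1. Igfbp4 and Pcolce were instead higher in ♂M-3 than in ♂M-1. Igfbp4 had a mean intensity of 203 ± 35.9 for ♂M-1 and 337 ± 8.44 for ♂M-3 (log2 difference −0.74 ± 0.11, adjusted p = 0.00569). Pcolce had 1115 ± 14.7 and 1576 ± 170 (log2 difference −0.49 ± 0.09, adjusted p = 0.0129). The Pcolce call was lost without either ♂M-1 repeat or ♂M-3 repeat 2. Of 8 smooth muscle markers 2 were lower in ♂M-3 than in ZM-1, in ♂M-1 2 were higher and 1 lower than in ZM-1, and 4 higher in ♂M-1 than in ♂M-3. Their sum was 2321 and 2570.5 in ♂M-1, 1658 and 1709 in ♂M-3, and 2169 and 2193 in ZM-1, without overlap of the lines. Pdgfra, Mfap5 and Pcolce of the fibroblast list and Actg2 and Cnn1 of the smooth muscle list were also counted in pathway lists. Without ♂M-3 repeat 2 or ZM-1 repeat 1, 3 fibroblast markers were lower in ♂M-3 than in ZM-1, and 1 smooth muscle marker was higher in ♂M-1 than in ♂M-3 without ♂M-1 repeat 2 or either ♂M-3 repeat.

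Of 13 endoderm markers 4 were lower and 1 higher in ♂M-3 than in ZM-1, 1 was lower in ♂M-1 against ZM-1, and 4 were higher and 2 lower in ♂M-1 than in ♂M-3. Their sums were 4827 and 4708 in ♂M-1, 4282 and 4236 in ♂M-3, and 4905 and 4893 in ZM-1. Of 8 blood markers 4 were lower in ♂M-3 and 1 in ♂M-1, each against ZM-1. Of 8 endothelial markers 1 was higher and 2 lower in ♂M-3 and 1 lower in ♂M-1, each against ZM-1, 1 was lower in ♂M-1 than in ♂M-3, and of 8 early mesoderm markers 1 was higher and 1 lower in ♂M-3 against ZM-1. Emcn was the 1 endothelial marker below the lower quartile in all lines, and 0 of the fibroblast, smooth muscle, endoderm, mesoderm and blood markers were. Of 10 embryonic stem cell markers 4 were higher in ♂M-3 and 1 in ♂M-1, each against ZM-1, and 1 lower in ♂M-1 than in ♂M-3, with sums of 24326 and 23447 in ♂M-1, 25609 and 26525 in ♂M-3, and 23186 and 22864 in ZM-1. Zfp42, a marker of the naive state, had a mean intensity of 291 ± 11.6 for ♂M-1, 671 ± 3.77 for ♂M-3 and 272 ± 12.0 for ZM-1 (SD, n = 2 each), highest in ♂M-3 (log2 difference 1.30 ± 0.08, adjusted p = 2.4e-05 against ZM-1). With 1 array left out the lower calls in ♂M-3 against ZM-1 were 1 to 4 for endoderm and 1 to 3 for blood markers, and the higher calls 1 to 3 for stem cell markers. The part of these marker levels in the matrix results was not tested.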

How the data were processed

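Total RNA of 3 mouse embryonic stem cell lines, 2 repeats each, was labelled with biotin and hybridised to a whole-transcript gene array, per the labels' protocols. The deposited values are 1 linear intensity per probe set and array, and the submitters' processing notes name GCOS 1.4. How background was corrected and arrays were normalized is not given in the sources used here, detection calls were not used, and no further normalization was applied. Symbols came from the platform's annotation: of 35556 probe sets 21789 carried 1 symbol, 1621 several, and 12146 were not listed. A gene with several such probe sets was read from the brightest, by mean over the 6 arrays, and 19938 genes were measured.

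Log2(intensity + 1) was fitted with limma 3.58.1 in R 4.3.3, 1 mean per line over all 6 arrays, with the moderated test and Benjamini-Hochberg adjustment over all genes at 0.05 (3 residual and 6.01 prior degrees of freedom). Tests were two-sided, and the fit was tested on simulated data. The study's design text calls the repeats biological, without naming cultures or passages, and p-values measure only the spread between them, and precision is limited by having 6 arrays. The 44 genes, the other lists and the rules were chosen with earlier results of these data known. Genes of the 44 called with at least a 1.5-fold difference are given array by array and the others called as line means. The rest are given as ranges or counts. Outside this rule, Fn1 and Lum are also given array by array, chosen after their values were seen. From every other list, genes were named among the 3 with the largest called differences of a comparison. The settings tried besides were a pseudocount of 16, quantile normalization, median centring, a filter on dim probe sets, an intensity trend, other probe set choices, a fit of only the lines compared, a replicate block and each array left out.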

Additional observations from a re-analysis of the deposited data

How the results depend on the processing

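The counts of matrix genes called kept their direction under every alternative run, and those of ♂M-3 against ZM-1 stayed within 1.5 times of the value reported: with 1 array left out 5 to 7 were higher and 17 to 21 lower, and with the other settings 19 (median centring) to 26 (intensity trend) were lower. With 1 array left out, 5 to 10 genes were higher and 1 to 4 lower in ♂M-1 against ZM-1, and 18 to 29 were higher and 0 to 1 lower in ♂M-1 than in ♂M-3. Each such fit leaves a line with 1 array, which is assumed to vary like the others, and has fewer residual degrees of freedom. Leaving out an array of the line not compared gives the same result as the fit of only the 2 lines compared. Of the 126 differences of matrix genes, 76 were called, 43 of these under every alternative run, and 0 of the called ones changed sign. By comparison this held for 6 of 15 called in ♂M-1 against ZM-1, 20 of 31 in ♂M-3 against ZM-1 and 17 of 30 in ♂M-1 against ♂M-3. Another 10 were called only under an alternative, and 40 under none, 16 of which changed sign under some setting and are given as levels only. Of 67 counts above 0 in the other lists, 58 moved by over 1.5 times with some array left out. Median centring shifted the calls over all genes from 376 higher and 504 lower to 629 and 385 in ♂M-1 against ZM-1, and from 1727 and 1435 to 2625 and 1080 in ♂M-3 against ZM-1. With the replicate number as a block, 10 genes were higher and 4 lower in ♂M-1 against ZM-1, 7 and 20 in ♂M-3 than in ZM-1, and 26 and 1 in ♂M-1 than in ♂M-3. Deviations of same-numbered arrays from their line means correlated by 0.067, −0.105 and −0.035 over all genes in these pairs of lines. Whether same-numbered arrays were handled together was not tested. Arrays have no counting depth, and dim probe sets such as those of Lum and Fap limit what a difference can show.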

Other observations

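The repeats of ♂M-1 lay further apart than those of the other lines for Tagln, Myl9 and Ankrd1, all known targets of SRF or YAP. Tagln read 768 and 1090.0 for ♂M-1, 577 and 568 for ♂M-3, and 581 and 539.7 for ZM-1, and Myl9 read 932 and 1301 for ♂M-1, 594 and 669 for ♂M-3, and 579.8 and 558 for ZM-1. Ankrd1 read 187 and 266 for ♂M-1, 96.0 and 101 for ♂M-3, and 175 and 179 for ZM-1. In all 3 genes the ♂M-1 repeats differed by more than the repeats of ♂M-3 or of ZM-1, and ♂M-1 repeat 2 was the higher one each time. A wide spread in ♂M-1 was not particular to these genes. Postn read 730.0 and 523 for ♂M-1, with repeat 1 the higher, 371 and 379 for ♂M-3, and 593 and 592 for ZM-1. Thbs2 and Tgfb3 also had their largest SD in ♂M-1. Tagln, Myl9 and Ankrd1 were singled out after their values were seen, and no cause was tested.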
